A study of Homo sapiens with 4 samples.

Results

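The plasminogen activators PLAU and PLAT, the urokinase receptor PLAUR and the serpins SERPINE2, SERPINB2 and SERPINB5 were examined in HuCCT1 cells, a cell line from a human intrahepatic cholangiocarcinoma (cancer of the bile ducts inside the liver). These 6 genes were taken as a named list, and every non-control probe whose transcript accession belonged to one of them was kept, which gave 7 probes of the 34127 on the array. PLAU had 2 probes and each other gene had 1. Probes of 19480 genes were named in this way in all.

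Each of 4 cultures was transfected at 30 nM with 1 of 4 RNAs and gave 1 array. The 4 RNAs were Pre-miR-376c (a mimic of mature miR-376c-3p), a Pre-miR negative control, siGRB2 (a small interfering RNA against the adaptor GRB2) and a non-silencing siRNA negative control. All 4 cultures were moved after 24 h to medium with 0.1% serum and 5 ng/ml EGF for another 24 h, so no value below is a response to EGF. The comparison asked which mRNAs differed with Pre-miR-376c and with siGRB2 in EGF-treated cells. No array was repeated, so no p-value is given anywhere and a difference is between 2 arrays.

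Urokinase (PLAU) and tissue-type plasminogen activator (PLAT) are serine proteases that cut plasminogen into plasmin, which degrades fibrin and parts of the extracellular matrix. PLAUR holds urokinase at the cell surface, where it is a familiar marker of invading carcinoma cells. Serpins are suicide substrates that trap a protease in an inactive complex. SERPINE2 (protease nexin 1) and SERPINB2 (plasminogen activator inhibitor 2) inhibit plasminogen activators, whereas SERPINB5 (maspin) is a clade B serpin best known as an epithelial protein without classical protease inhibition.

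The sequence delivered in the Pre-miR-376c culture is shown because it defines that group, with the seed (bases 2 to 8) in capitals. It is taken from RefSeq, build GRCh38.p14, at chr14:101039732-101039752 on the plus strand.
hsa-miR-376c-3p: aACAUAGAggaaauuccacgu

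Promoter sequence was at hand in RefSeq (GRCh38.p14, 250 bases before to 50 after the start) for 5 of the 6 genes, with 7 promoters. PLAT had none and was not searched. Windows of 30 bases are shown for the word TGANTCA, because 1 promoter each of PLAUR, SERPINB2 and SERPINB5 held it. Its middle base may be any base, so it is looser than the site of AP-1 dimers that act downstream of EGF receptor signalling. The middle base was guanine in PLAUR and adenine in SERPINB2 and SERPINB5, and these forms were not counted apart. The word is in capitals, both strands were searched, and 7.71% of 35116 RefSeq promoters held it.
PLAUR, chr19:43670337-43670366, minus strand: tcacaactccaTGAGTCAgggccgagccag
SERPINB2, chr18:63887592-63887621, plus strand: gagtaaaatgtTGAATCActcaaaggacac
SERPINB5, chr18:63476801-63476830, plus strand: taacttcagccTGAATCAtttctttcaatt

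These words began 186, 102 and 146 bases before the start of PLAUR, SERPINB2 and SERPINB5. Both PLAU promoters and both SERPINE2 promoters held no match in this window. The word TATAAA, in 11.53% of promoters, occurred among the searched members in SERPINB2 alone, 30 bases before the start. The word GGGCGG, in 45.0% of promoters, occurred in 1 PLAU promoter, both SERPINE2 promoters and the SERPINB5 promoter. These matches describe the letters, and binding was not measured here.

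The level used throughout is the log2 processed signal of a probe minus the log2 of the array's 75th percentile, so that 0 is a signal at that percentile, and it is compared within a probe. A probe counted as detected where the scanner software called it well above background. A difference of at least 2-fold (1 on the log2 scale) was called. Between 21811 and 24119 probes were detected per array, and no spot was saturated. GRB2, the gene targeted by siGRB2, had levels of 0.62 with the Pre-miR negative control, 0.07 with Pre-miR-376c, -0.10 with the siRNA negative control and -0.65 with siGRB2. It was thus lowest with siGRB2, by -0.55 against the siRNA negative control, short of 2-fold, and by -1.27 against the Pre-miR negative control. The negative controls themselves differed by -0.72, and Pre-miR-376c differed from its own control by -0.55. The array of the siRNA negative control stood apart: 1247 to 1749 probes differed at least 2-fold in pairs with it, against 231 to 283 in pairs without it. Each treatment is therefore set against both negative controls, and these comparisons share arrays. All 9 probes of 7 biliary and epithelial markers (KRT7, KRT19, KRT8, KRT18, EPCAM, CDH1 and SOX9) were detected on every array, and the hepatocyte markers ALB, APOB and TTR on none. Of the 14 probes for leukocyte, endothelial and fibroblast markers, 8 were detected on at least 1 array. Their signals relative to the 75th percentile summed to 1.18 with the Pre-miR negative control, 0.890 with Pre-miR-376c, 1.14 with the siRNA negative control and 1.28 with siGRB2. The leukocyte marker CD68 alone contributed 0.512 to 0.729 to these sums. COL1A1, the 1 fibroblast marker detected, was called lower with Pre-miR-376c against its own control (-1.01), while COL3A1 and PDGFRB were detected on no array. In that comparison the endothelial marker VWF differed by -0.61 and CD68 fell from -0.63 to -0.96. The endothelial marker CDH5 instead rose from -4.04 to -3.85, and the median difference of 4 leukocyte probes was 0.10, so the markers did not move together. The part of these markers in any result was not tested.

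PLAU was read first by probe A_23_P24104, which is printed as 10 spots on each array. Its level was 6.55 with the Pre-miR negative control, 6.29 with Pre-miR-376c, 6.51 with the siRNA negative control and 6.10 with siGRB2. The SD over the spots of an array lay between 0.030 and 0.042. Here and below, the spot SD is the spread of single spots and not the error of their mean. It takes no account of a spot's place on the array. Both treated arrays were thus below both negative controls, and the 20 treated spots (6.05 to 6.33) were all below the 20 control spots (6.46 to 6.60). Spots of 1 array share 1 RNA, so this separation describes the precision of the readings and not the spread between cultures. How many other probes with 10 spots were separated in this way was not counted. An array reads a whole culture, in which fewer cells of a kind and less RNA per cell cannot be told apart.

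Pre-miR-376c left 83.6% of the Pre-miR negative control's PLAU signal, a difference of -0.26. siGRB2 left 75.3% of the siRNA negative control's signal, a difference of -0.41. Against the other control, Pre-miR-376c differed by -0.22 (85.6%) and siGRB2 by -0.44 (73.6%). The negative controls differed from each other by -0.03, within the spot SD, but this value depended on the scaling and ran from -0.30 under quantile normalization to 0.24 after a shift to the median. siGRB2 was below Pre-miR-376c by 0.18, which is beyond the combined spot SD of 0.04 but not the combined scanner error of 0.20. The 4 treated-against-control differences were 1.10 to 2.17 times the combined scanner error. With Pre-miR-376c they fell short of it under some scalings, at -0.15 against its own control after a shift to the median and at -0.03 against the siRNA negative control under quantile normalization.

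PLAT, the tissue-type activator, was read by probe A_23_P82868, also with 10 spots. Its level was 3.73 with the Pre-miR negative control, 3.42 with Pre-miR-376c, 3.66 with the siRNA negative control and 3.36 with siGRB2. The spot SD was 0.038 to 0.054. As for PLAU, the 20 treated spots (3.23 to 3.47) were all below the 20 control spots (3.57 to 3.78).

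PLAT differed by -0.32 with Pre-miR-376c (80.3% of its own negative control) and by -0.29 with siGRB2 (81.6% of its own). Against the other control, Pre-miR-376c differed by -0.24 (84.8%) and siGRB2 by -0.37 (77.3%). The treated arrays differed by 0.05 from each other, within the combined spot SD of 0.07. The negative controls were 0.08 apart, just beyond the spot SD of 0.06 and within the scanner error, and this difference ran from -0.26 to 0.19 under the same scalings. Under quantile normalization, PLAT with Pre-miR-376c against the siRNA negative control was also at -0.03.

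Such an order of the array means was not rare, and the shares given here are of means and not of single spots. Both treated arrays were below both negative controls for 2 of the 6 member probes detected on all arrays, for 13.6% of all 21239 probes detected on all arrays, and for 16.3% of the 744 such probes with 10 spots. The mean of the treated arrays minus the mean of the negative controls was -0.33 for PLAU and -0.30 for PLAT, and 15.1% and 17.2% of the 10-spot probes were at least as low. The median of these 744 probes was -0.04, with quartiles of -0.21 and 0.16. The PLAU and PLAT values thus lay beyond the lower quartile, but not at the edge, of the probes read with the same number of spots.

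The second PLAU probe, A_33_P3306146, carries another PLAU transcript accession and has 1 spot. Its level was 2.95 with the Pre-miR negative control, 1.96 with Pre-miR-376c, 1.61 with the siRNA negative control and 1.96 with siGRB2. The Pre-miR negative control was thus highest, the siRNA negative control lowest, and the treated arrays within 0.01 of each other between them. Against the Pre-miR negative control, the differences were -0.98 with Pre-miR-376c (50.5%) and -0.99 with siGRB2 (50.3%), both just short of 2-fold. Against the siRNA negative control, they were 0.35 and 0.35, of the opposite sign. The negative controls themselves differed by -1.34 (39.5%). The PLAU probes therefore disagreed in direction wherever the siRNA negative control was the reference, and only that with 10 spots gave 1 direction against both controls.

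The 3 named probes nearest to this pattern, by the root mean square of the centred log2 differences over the 4 arrays and among 17436 candidates, were those of ARSB (0.01), HES2 (0.04) and MAJIN (0.07). No other member probe spanned as much as 2-fold while detected on every array, so no such likeness was computed for them.

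PLAUR, the receptor, was read by 1 spot of probe A_23_P16469. Its level was 1.43 with the Pre-miR negative control, 0.85 with Pre-miR-376c, 0.47 with the siRNA negative control and 0.92 with siGRB2. The order was that of the second PLAU probe: the negative controls lay at the ends and the treated arrays between them, 0.07 apart and within the scanner error of 0.20. PLAUR differed by -0.58 with Pre-miR-376c (66.7%) and by -0.51 with siGRB2 (70.1%) from the Pre-miR negative control. Against the siRNA negative control, PLAUR differed by 0.38 with Pre-miR-376c and by 0.45 with siGRB2. The difference between the negative controls, -0.97, was larger than each of these, so the sign of the PLAUR difference was set by which negative control was used.

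SERPINE2, an inhibitor of urokinase, tissue-type activator and thrombin, was read by 1 spot of probe A_23_P50919 and was detected with the Pre-miR negative control alone. Its measured levels were -6.67 with the Pre-miR negative control, -6.51 with Pre-miR-376c, -7.00 with the siRNA negative control and -7.20 with siGRB2. The scanner's error of these values was 0.29 to 0.57 and the lowest detected probe of an array lay at -6.99 to -6.32, so no fold is given. SERPINE2 signal was not distinguishable from background on the other 3 arrays.

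SERPINB2, the clade B inhibitor of plasminogen activators, was read by 1 spot of probe A_24_P245379. Its level was 0.99 with the Pre-miR negative control, 0.96 with Pre-miR-376c, 0.48 with the siRNA negative control and 1.16 with siGRB2. The siRNA negative control was lowest, and the other 3 arrays spanned 0.20, no more than the scanner error. SERPINB2 differed by 0.68 with siGRB2 from its own control and by 0.17 from the Pre-miR negative control. With Pre-miR-376c, the differences were -0.03 from its own control and 0.48 from the siRNA negative control. The negative controls differed by -0.51 (70.0%).

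SERPINB5 was read by 1 spot of probe A_33_P3310104. Its level was 1.15 with the Pre-miR negative control, 1.16 with Pre-miR-376c, 1.60 with the siRNA negative control and 1.17 with siGRB2. The siRNA negative control was highest here, and the other 3 arrays lay within 0.018 of each other. The differences were accordingly 0.01 with Pre-miR-376c and 0.02 with siGRB2 against the Pre-miR negative control. Against the siRNA negative control, SERPINB5 differed by -0.44 with Pre-miR-376c and by -0.43 with siGRB2.

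Across the 7 probes, none was called with Pre-miR-376c against the Pre-miR negative control, where 3.04% of the 24384 probes compared were called. None was called with siGRB2 against the siRNA negative control, where 9.82% of 23368 were. With the controls exchanged, none was called with siGRB2 (2.94% of 24495) or with Pre-miR-376c (7.26% of 22974). Between the negative controls, 1 was called, the second PLAU probe, which was lower with the siRNA negative control (9.17% of 24340). With 6 or 7 member probes compared each time, these counts are near the background.

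The median difference of the members was -0.29 with Pre-miR-376c against its own control, where that of all probes was -0.03. It was 0.03 with siGRB2 against its own control, where that of all probes was 0.15. With the controls exchanged, the members' median was -0.41 with siGRB2 (all probes 0.04) and 0.06 with Pre-miR-376c (all probes 0.09). Between the negative controls it was -0.30, against -0.11 for all probes. By sign alone, members were mostly lower against the Pre-miR negative control: 5 of 6 probes with Pre-miR-376c, 4 of 6 with siGRB2 and 5 of 6 with the siRNA negative control. These counts share the Pre-miR negative control array and include both PLAU probes. They also include differences within the scanner error that changed sign under some alternatives. These were SERPINB2 with Pre-miR-376c (-0.03) and, between the negative controls, the first PLAU probe (-0.03) and PLAT (-0.08). The share of all probes that was lower was not counted. Against the siRNA negative control, each treatment had 3 of 6 lower.

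The siRNA negative control was the lowest array for 3 of the 6 member probes detected everywhere and the highest for 1. It was lowest or highest for 75.4% of all probes detected on every array. The Pre-miR negative control was in turn the highest array for both PLAU probes, PLAT and PLAUR, and the lowest, by 0.01, for SERPINB5. Its share over all probes was not counted, so these ends do not single out either negative control for the members. Taking the treated arrays side by side, siGRB2 minus Pre-miR-376c was -0.18 and -0.01 for the PLAU probes and -0.05 for PLAT. It was 0.07 for PLAUR, 0.20 for SERPINB2 and 0.01 for SERPINB5. Each of these was within the combined scanner error of 0.20, and the SD of that difference over all probes was 0.32.

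Of 25 further genes of the plasminogen system, 24 had a probe, with 27 probes, of which 18 were detected on all arrays, 24 on at least 1 and 3 on none. The probes on none included those of PLG, the zymogen plasminogen, and of SERPINA5, an inhibitor of activated protein C and urokinase. None of 24 probes compared was called with Pre-miR-376c against its own control, where 3.04% of all probes were. With siGRB2 against the siRNA negative control, 3 of 22 were called higher and 1 lower, where 9.82% of all probes were called. These were SERPINF2 (at least 1.29), both LRP1 probes (1.20, and at least 1.02) and, lower, F12 (-1.02). With the Pre-miR negative control in its place, none of 24 was called (2.94% of all probes).

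LRP1, the endocytic receptor that clears activator and inhibitor complexes, was highest with siGRB2 by both probes, at 0.57 and 0.84 above the Pre-miR negative control. Both probes were faint, at -5.30 and -4.17 with siGRB2, where the lowest detected probe of that array lay at -6.43. The first, with 10 spots, was not detected with Pre-miR-376c or with the siRNA negative control. SERPINF2, the plasmin inhibitor, was not detected with the siRNA negative control. It was called in 2 further comparisons with that array, 1 of 21 probes with Pre-miR-376c (7.26% of all probes) and 1 of 24 between the negative controls (9.17%). Pre-miR-376c exceeded it by at least 1.42, and the siRNA negative control against the Pre-miR negative control gave a bound of -1.71.

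The cell surface binders of plasminogen were detected on all arrays by 5 of 5 probes. S100A10, a partner of annexin A2, stayed within 6.01 to 6.34, and its differences from the negative controls reached 0.33. The ANXA2 probes disagreed, since A_23_P146644 differed by -0.09 and A_32_P148345 by -0.95 with siGRB2 against the Pre-miR negative control. Over the probes with a difference, the median was -0.09 with Pre-miR-376c (23 probes, all probes -0.03) and 0.38 with siGRB2 (22 probes, all probes 0.15), each against its own control. Between the negative controls it was -0.13 (22 probes, all probes -0.11).

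Besides SERPINB2 and SERPINB5, 11 clade B serpins (the intracellular branch of the family) had 13 probes, of which 7 were detected on at least 1 array and 6 on none. On chromosome 18, RefSeq holds 10 clade B genes, taken here by position without examining which other genes lie between them. In the order SERPINB5, SERPINB12, SERPINB13, SERPINB4, SERPINB3, SERPINB11, SERPINB7, SERPINB2, SERPINB10 and SERPINB8, the first, SERPINB7, SERPINB2 and SERPINB8 were detected on all arrays, 5 genes in between were detected on none, and SERPINB10 was detected on some. The members SERPINB2 and SERPINB5 were thus 2 of the 4 clade B genes of chromosome 18 detected on every array. One clade B probe of 7 compared was called with Pre-miR-376c against the siRNA negative control, where 7.26% of all probes were, and none in the other comparisons. It was that of SERPINB9, an inhibitor of granzyme B. Its levels were 0.38 with the Pre-miR negative control, -0.60 with Pre-miR-376c, 0.41 with the siRNA negative control and 0.69 with siGRB2. SERPINB9 was lowest with Pre-miR-376c, by -0.98 against its own control and by -1.003 against the siRNA negative control, and of these the second was at the 2-fold limit.

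**Figure D1:**
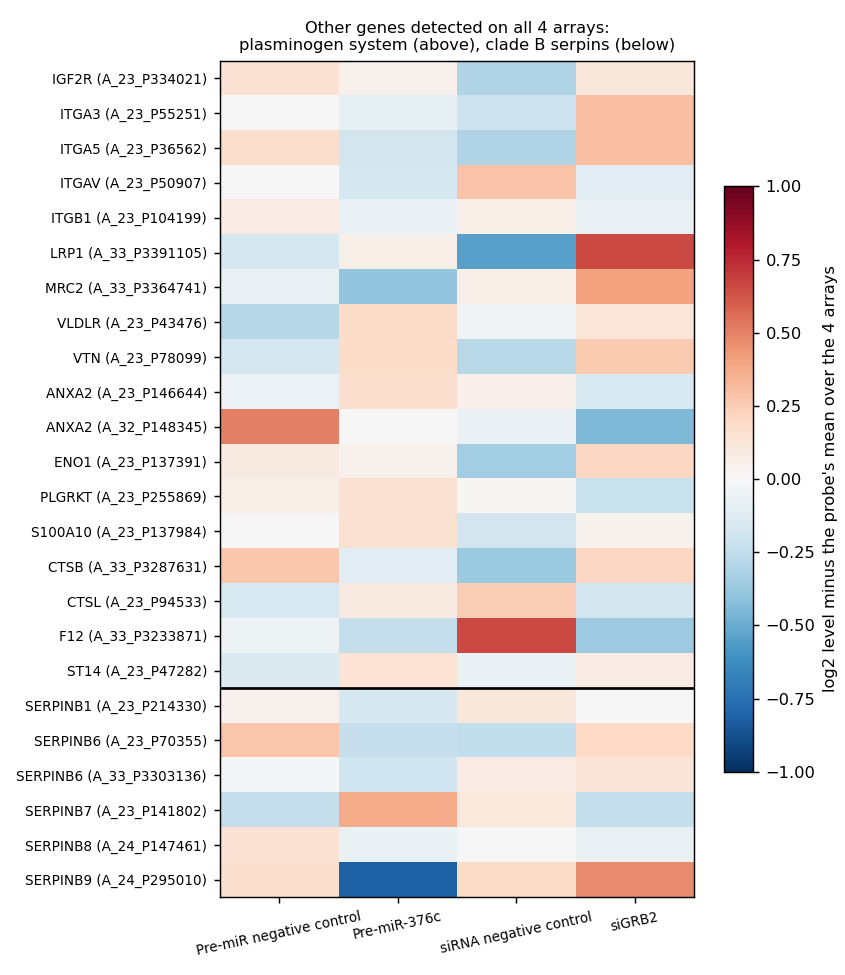
Levels of the other plasminogen system genes (above the line) and clade B serpins (below it) detected on all 4 arrays, as the log2 level minus the probe's mean over the arrays, in colour. LRP1 was high with siGRB2 and low with the siRNA negative control, F12 was the reverse, and SERPINB9 was low with Pre-miR-376c.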

How the data were processed

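Total RNA (200 ng per culture) was labelled with 1 dye and hybridised to 4 arrays (Agilent Human GE 4×44 K v2) of 1 slide. Per the labels, the authors extracted the spots with Agilent Feature Extraction 10.7, and the deposited intensity is its processed signal. A second deposited file holds log2 values that the authors scaled per array, and it served as an alternative. Spots flagged as outliers were left out and spots of a probe averaged as log2 levels, each minus the 75th percentile of that array's 43118 spots other than controls. Detection required more than 0.5 of a probe's spots well above background. Where 1 of 2 arrays was detected, the fold is a bound against the lowest detected signal of the other, and none is given where that bound falls under 1-fold. Of 34127 probes, 25419 were named through RefSeq accessions (GRCh38.p14), whereas the array files name hg19. Python 3.11.15, numpy 2.4.6, pandas 2.3.3, R 4.3.3 and limma 3.58.1 were used. The calling step was run on simulated data whose changes were set well beyond the 2-fold limit, so calls near that limit were not tested. The scanner error is the software's own estimate for a spot, about 0.144 on the log2 scale for members above background. Having 1 array per condition is what bounds the precision.

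The genes named are all members, GRB2, called probes and role examples of 2 further lists (other plasminogen system genes and clade B serpins), cell type markers, and the nearest 3 probes in pattern to a member that spans 2-fold. The members and lists were chosen with earlier results of these data known. One gene of the plasminogen system is not reported here. Alternatives were quantile normalization, a shift to the median, the percentile of probes detected everywhere, normexp (background correction with an offset of 50), the deposited log2 table, flagged spots kept, limits of 1.5-fold and 3-fold, detection on both arrays, and the other control or the mean of both.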

Additional observations from a re-analysis of the deposited data

How the results depend on the processing

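With 1 array per condition, none can be left out and no spread between cultures is known. No paired analysis was possible because every label carries the same single replicate number. Under quantile normalization or a 1.5-fold limit, the second PLAU probe passed with Pre-miR-376c against its own control (1 probe). With siGRB2 against the Pre-miR negative control it passed under quantile normalization, the median shift, the percentile over detected probes and the 1.5-fold limit (1 probe each). With siGRB2 against its own control, SERPINB2 passed the 1.5-fold limit (1 probe). Between the negative controls, PLAUR joined under quantile normalization, the percentile over detected probes and the 1.5-fold limit (2 probes), and the 3-fold limit left 0. Normexp gave 3 probes with siGRB2 against its own control and 4 against the other. It moved the median of all probes by 0.87 and 0.89 in these comparisons, and normexp without spots whose local background was above 10 times the median, chosen after seeing the data, moved it by -0.05 and 0.06 and kept the counts at 0. The median shift moved that median by 0.11 with Pre-miR-376c, -0.28 with siGRB2, each against its own control, and 0.27 between the negative controls. The PLAU probe with 10 spots and PLAT kept a negative sign in all 4 treated-against-control comparisons under all 8 processing alternatives. Keeping flagged spots and requiring detection on both arrays could not move them, since neither had a flagged spot and both were detected everywhere. The deposited table differed from the processed signal only by a constant per array. The values of PLAU and PLAT nearest to 0, both with Pre-miR-376c against the siRNA negative control, were -0.03. The sign of the difference between the negative controls changed for PLAU under 2 alternatives and for PLAT under 1. For the other members, signs changed where the difference was under 0.18 (SERPINB2 and SERPINB5 against the Pre-miR negative control) and, under normexp, for PLAUR and the second PLAU probe with siGRB2 against its own control (-0.19 and -0.48).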
